A study of Homo sapiens with 12 samples.

Results

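The genes described here are the GATA transcription factors GATA1, GATA2, GATA3, GATA4 and GATA6 and their FOG cofactors ZFPM1 (FOG1) and ZFPM2 (FOG2). They were chosen by symbol, and all 7 have a row among the 56266 genes of the deposited tables. RNA-Seq values were available for 10 libraries in 5 groups of 2 replicates, made from H1, an established human embryonic stem cell line, and from H1-GATA2-/-. The groups were undifferentiated GATA2-/- hESCs, wildtype (WT) and GATA2-/- hemogenic endothelium (HE) sorted at day 8 of co-culture, and WT and GATA2-/- hematopoietic progenitor cells (HPCs) sorted at day 9. HEs were CD34+CD31+CD43- cells, HPCs were CD34+CD43+ cells, and both were taken from co-culture with OP9, a mouse bone marrow stromal line. WT hESCs were not analysed here. The GATA2-/- cells come from 1 expanded clone in which both alleles carry a neomycin resistance cassette under a PGK promoter, so an effect of genotype and an effect of that clone cannot be told apart. The labels do not say whether the replicates came from separate cultures, and p-values measure the spread between these libraries only.

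GATA factors are zinc finger proteins that bind DNA sites with a GATA core. GATA2 acts early, in endothelium that gives rise to blood and in blood stem and progenitor cells, and GATA1 drives erythroid, megakaryocyte, mast cell and eosinophil genes. As red cells mature, GATA1 takes over sites held by GATA2, which is known as the GATA switch, and FOG1 binds GATA1 and is needed for much of that exchange. GATA3 is best known in T cells and also acts in other tissues, while GATA4 and GATA6 act in heart, gut and endoderm, where FOG2 is the usual partner. FOG proteins do not bind DNA by themselves. They tether repressor complexes such as NuRD and CtBP to GATA factors.

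The first sequence is shown because it carries the start of the disrupted protein. GATA2 lies on chromosome 3 from 128198270 to 128212044 on the minus strand (GRCh37, the hg19 assembly, GENCODE annotation). The cassette was placed in exon 3 by the study's numbering, and in the annotated transcript with 7 exons, exon 3 is the exon with the start codon, from 128205646 to 128205919. The same exon is exon 2 of 6 in the canonical transcript. Its coding part has 229 bases, chr3:128205646-128205874, read on the minus strand with the start codon in capitals.
GATA2 coding part of the exon: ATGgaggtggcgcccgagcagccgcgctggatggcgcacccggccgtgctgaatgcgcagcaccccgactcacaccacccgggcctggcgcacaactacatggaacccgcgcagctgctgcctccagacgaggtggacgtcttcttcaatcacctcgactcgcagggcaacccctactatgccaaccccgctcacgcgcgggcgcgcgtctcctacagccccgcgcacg

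The next sequences are shown because GATA1, GATA2 and ZFPM1 were the members that were higher in WT HPCs than in WT HEs. They are the 250 bases before the annotated starts (RefSeq, GRCh38.p14), 5′ to 3′ on the strand of the gene, and each was found once in the GRCh37 sequence at the position given. RefSeq promoter windows were matched for 5 of the 7 members, 11 windows in all. Capitals mark each CACCC, the core bound by KLF factors such as KLF1, on either strand.
GATA1, chrX:48644748-48644997, plus strand: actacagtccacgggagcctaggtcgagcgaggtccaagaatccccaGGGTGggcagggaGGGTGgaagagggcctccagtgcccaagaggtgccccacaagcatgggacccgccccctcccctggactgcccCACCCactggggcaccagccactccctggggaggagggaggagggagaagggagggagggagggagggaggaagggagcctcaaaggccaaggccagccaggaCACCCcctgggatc
GATA2 upstream start, chr3:128212045-128212294, minus strand: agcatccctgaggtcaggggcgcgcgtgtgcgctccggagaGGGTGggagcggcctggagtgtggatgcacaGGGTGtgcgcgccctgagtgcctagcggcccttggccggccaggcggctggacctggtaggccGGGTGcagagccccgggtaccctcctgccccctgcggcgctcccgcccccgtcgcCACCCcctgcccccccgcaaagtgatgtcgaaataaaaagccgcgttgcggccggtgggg
GATA2 downstream start, chr3:128207374-128207623, minus strand: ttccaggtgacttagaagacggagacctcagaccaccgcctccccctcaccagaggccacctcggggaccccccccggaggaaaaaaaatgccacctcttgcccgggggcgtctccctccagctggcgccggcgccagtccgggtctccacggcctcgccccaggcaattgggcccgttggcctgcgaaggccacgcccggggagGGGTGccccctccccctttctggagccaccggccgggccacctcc
ZFPM1, chr16:88519438-88519687, plus strand: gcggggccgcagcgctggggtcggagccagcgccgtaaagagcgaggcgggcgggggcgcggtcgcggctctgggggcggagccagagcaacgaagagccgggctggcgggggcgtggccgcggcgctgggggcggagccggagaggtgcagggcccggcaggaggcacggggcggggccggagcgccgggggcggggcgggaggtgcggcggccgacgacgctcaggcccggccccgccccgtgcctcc

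The GATA1 window held 4 CACCC matches, and the upstream GATA2 window also held 4. The downstream GATA2 window held 1 and the ZFPM1 window held 0. Matches were not limited to members that rose: every GATA3 window held 1 to 3 and the GATA6 window held 2. Among all 35116 RefSeq promoter windows of 300 bases (250 before and 50 after the start), 59.9% held at least 1 CACCC on either strand. The number of matches per window was not compared over all windows. A site for GATA factors was searched on both strands with the letters AGATAA or AGATAG, and also TGATAA or TGATAG. None of the 11 member windows held 1, and 25.0% of all windows did. The E-box CANNTG was found 4 times in the downstream GATA2 window, 3 times in the 250 bases printed and once at position 43 after the start, and 0 times in the GATA1, upstream GATA2 and ZFPM1 windows, against 68.7% of all windows with a match. The ZFPM1 window was 83.0% G or C, against 67.7% for GATA1. The whole upstream GATA2 window lies inside the annotated antisense gene GATA2-AS1.

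The values are TPM, a measure that corrects for transcript length and scales each library to about the same total, so levels of different genes can be set side by side but how many reads a value rests on is unknown. Between 16004 and 17335 genes a library had a TPM of at least 1. Replicates correlated with Pearson's r from 0.958 to 0.973 across genes on the log2(TPM + 1) scale. The sorted populations carried their markers. CDH5, the endothelial cadherin, was at 514 to 614 TPM in HEs and 53.9 to 137 in HPCs, and SPN, which encodes CD43, was at 1.76 to 8.81 TPM in HEs and 98.0 to 108 in HPCs. CD34 was at 605 to 1060 TPM in HEs and 114 to 242 in HPCs, and POU5F1 was at 3332 and 2855 TPM in hESCs and at most 3.02 elsewhere. PECAM1 (CD31) was not analysed here, and PTPRC (CD45) was listed at 0 in all 4 HE libraries at 0.68 to 3.09 TPM in HPCs and, in the same range, at 0.56 and 3.06 TPM in hESCs. Of 10 mesenchymal and stromal markers, 7 to 9 reached 1 TPM in HEs and 6 to 8 in HPCs. Their summed TPM was 903 to 1132 in HEs, 118 to 256 in HPCs and 550 to 608 in hESCs. THY1 was the largest part in HEs and hESCs. It was at 423 to 532 TPM in HEs, 16.2 to 53.2 in HPCs and 488 and 473 in hESCs. PDGFRB went the other way, at 2.99 to 8.24 TPM in HEs and 12.5 to 15.6 in HPCs. In WT HPCs 4 of the 10 were lower than in WT HEs and 1 higher (limma, adjusted p under 0.05). Of all tested genes 6.59% were lower and 3.32% higher. The part of these markers in the stage differences was not tested. Transcripts of the mitochondrial genome made up 14.8% and 15.1% of TPM in GATA2-/- HPCs, 8.66% and 9.61% in WT HPCs and 6.29% to 6.82% in HEs. In sorted bulk samples, fewer cells that transcribe a gene and less RNA per cell cannot be told apart.

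**Figure D1:**
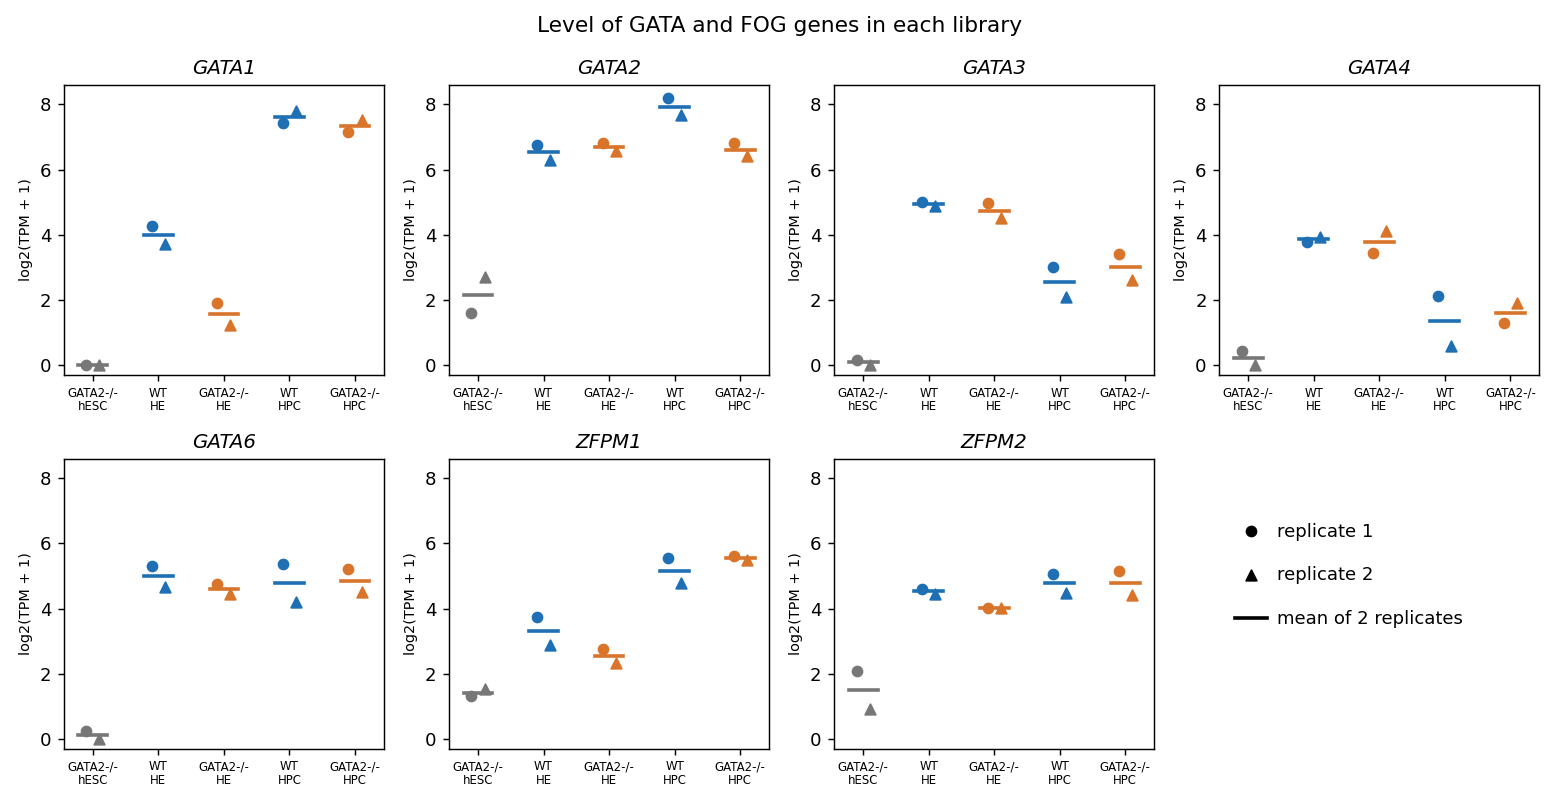
The vertical axis of each panel is log2(TPM + 1), and circles, triangles and bars are replicate 1, replicate 2 and their mean (grey GATA2-/- hESC, blue WT, orange GATA2-/-). GATA1 and ZFPM1 are highest in the 4 HPC libraries, GATA3 and GATA4 in the 4 HE libraries, and GATA2 is above 200 TPM only in the 2 WT HPC libraries.

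Before differentiation the family was almost silent. In the 2 GATA2-/- hESC libraries the 5 GATA genes summed to 2.69 and 5.54 TPM, most of it GATA2 at 2.05 and 5.54 TPM. GATA1 was listed at 0 in both, and GATA3, GATA4 and GATA6 were at 0.12, 0.34 and 0.18 TPM in replicate 1 and listed at 0 in replicate 2. The cofactors were present at low levels, ZFPM1 at 1.5 and 1.87 TPM and ZFPM2 at 3.21 and 0.88 TPM.

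In GATA2-/- HEs, 6 of the 7 members were higher than in GATA2-/- hESCs at an adjusted p under 0.05 (limma over 21543 genes), against 13.9% of all tested genes called higher in that comparison. GATA3 differed most, by 4.66 on the log2(TPM + 1) scale (SE 0.40, adjusted p = 5.71e-05), followed by GATA2 at 4.53 (SE 0.36, adjusted p = 3.54e-05), GATA6 at 4.48 (SE 0.42, adjusted p = 9.63e-05), GATA4 at 3.57 (SE 0.53, adjusted p = 0.00115) and ZFPM2 at 2.53 (SE 0.41, adjusted p = 0.00184). GATA1 was also called, at 2.78 and 1.37 TPM from a listed 0. ZFPM1 was at 5.76 and 3.98 TPM, a log2 difference of 1.12 (SE 0.37) that just missed the threshold (adjusted p = 0.0504). In GATA2-/- HPCs, 6 of 7 were again higher than in GATA2-/- hESCs, against 14.2% of all tested genes. The exception was GATA4, at 1.40 on the log2 scale (SE 0.53, adjusted p = 0.0773). The 2 comparisons share the hESC libraries. GATA1, GATA3, GATA4 and GATA6 were below 1 TPM in both hESC libraries. They were kept for testing (1 TPM in 2 or more libraries) only through differentiated cells. Against hESCs such genes could hardly be called lower, whereas the shares over all tested genes include genes that could fall. The counts of 6 of 7 are therefore no test of the family.

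The comparison of HPCs with HEs follows the passage from endothelium to blood, separately in each genotype. In WT cells GATA1, ZFPM1 and GATA2 rose, GATA3 and GATA4 fell, and GATA6 and ZFPM2 did not pass the test. That is 3 of 7 members called higher, against 3.32% of all tested genes, and 2 of 7 called lower, against 6.59%. In GATA2-/- cells GATA1 and ZFPM1 rose and GATA3 and GATA4 fell, which is 2 of 7 higher against 5.5% of all tested genes and 2 of 7 lower against 7.24%. Over all genes called in GATA2-/- cells 43.2% were higher in HPCs, and 53.6% were with TPM rescaled without mitochondrial genes, under which the member calls stayed at 4. Over the 7 members the median log2 fold change was 0.25 in WT and 0.26 in GATA2-/- cells, beside -0.01 and 0.03 over all tested genes. These differences go with day of sorting and with the sort gate as well as with cell identity, and the 3 cannot be told apart.

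**Figure D2:**
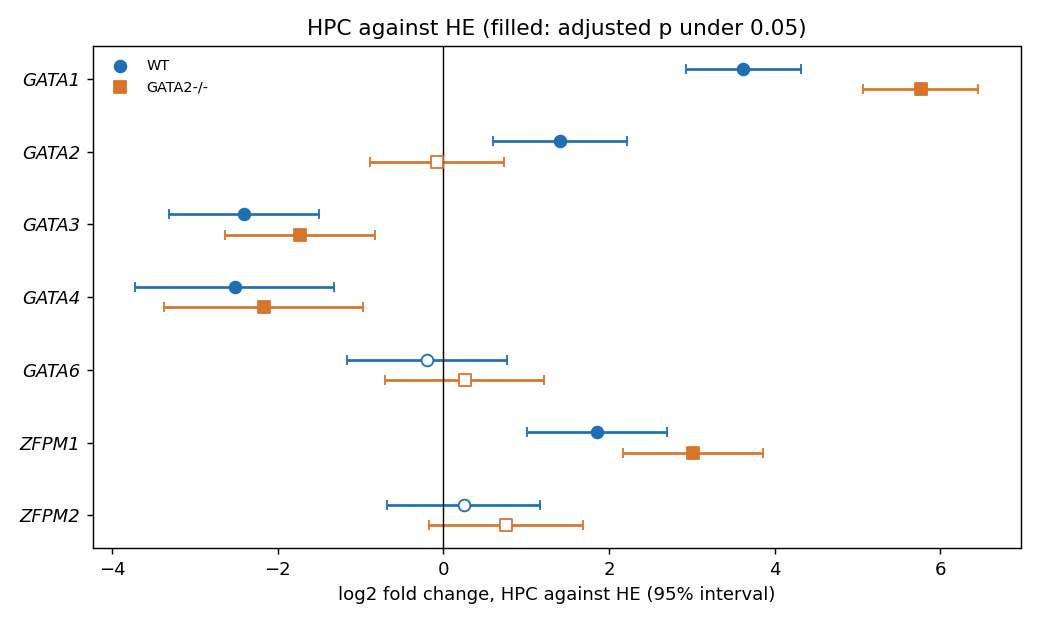
The horizontal axis is the log2 fold change of HPCs against HEs on the log2(TPM + 1) scale with its 95% interval from limma, with blue circles for WT, orange squares for GATA2-/- and filled symbols for an adjusted p under 0.05. GATA1, at 3.62 in WT and 5.76 in GATA2-/- cells, lies farthest to the right in both genotypes, and GATA2 lies at 1.40 in WT and -0.07 in GATA2-/- cells.

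GATA1 lies on chromosome X from 48644948 to 48652718 on the plus strand. Its level was 18.4 and 12.1 TPM in WT HEs, 2.78 and 1.37 in GATA2-/- HEs, 172 and 219.6 in WT HPCs and 143 and 182 in GATA2-/- HPCs. All 4 HPC libraries were above all 4 HE libraries, and the 2 genotypes overlapped in HPCs but not in HEs. The rise from HE to HPC was 3.62 on the log2 scale in WT (SE 0.31, adjusted p = 0.000434) and 5.76 in GATA2-/- cells (SE 0.31, adjusted p = 0.000158). Both calls held when any of the 4 libraries compared was left out, with adjusted p from 0.00247 to 0.00884 in WT and from 0.000834 to 0.00388 in GATA2-/- cells.

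GATA2 was at 107 and 78.0 TPM in WT HEs, 111 and 94.1 in GATA2-/- HEs, 290.1 and 204 in WT HPCs and 112 and 83.8 in GATA2-/- HPCs. The 2 WT HPC libraries stood above the other 8, and the remaining HE and HPC groups overlapped each other. The deposited gene-level value counts any RNA of the locus, including a disrupted transcript, so it does not check the genotype labels. From WT HE to WT HPC it rose by 1.40 on the log2 scale (SE 0.36, adjusted p = 0.0405). That call was lost when any of the 4 libraries was left out (adjusted p 0.0903 to 0.218) and with the replicate number as a block (adjusted p = 0.0533). In GATA2-/- cells the log2 difference was -0.07 (95% interval -0.88 to 0.74, adjusted p = 0.947), and its sign changed under some scalings.

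ZFPM1, the FOG cofactor of blood cells, lies on chromosome 16 from 88519688 to 88603439 on the plus strand. It was at 12.4 and 6.32 TPM in WT HEs, 5.76 and 3.98 in GATA2-/- HEs, 45.7 and 26.5 in WT HPCs and 48.0 and 43.9 in GATA2-/- HPCs. As for GATA1, every HPC library was above every HE library. The rise was 1.85 in WT (SE 0.37, adjusted p = 0.0149) and 3.01 in GATA2-/- cells (SE 0.37, adjusted p = 0.00126), both on the log2 scale. The WT call was lost without WT HE replicate 2 (adjusted p = 0.107) or WT HPC replicate 1 (adjusted p = 0.092), whereas the GATA2-/- call held without any of its libraries.

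GATA3 lies on chromosome 10 from 8087341 to 8117161 on the plus strand. It was an HE gene here, at 31.0 and 28.7 TPM in WT HEs, 30.3 and 21.96 in GATA2-/- HEs, 6.99 and 3.26 in WT HPCs and 9.72 and 5.08 in GATA2-/- HPCs. All HE libraries were above all HPC libraries, and the genotypes overlapped at both stages. GATA3 fell by 2.40 on the log2 scale in WT (SE 0.40, adjusted p = 0.00638) and fell by 1.73 in GATA2-/- cells (SE 0.40, adjusted p = 0.0229). Leaving out either WT HE library moved the WT value just past the threshold (adjusted p = 0.053 and 0.0513), and the GATA2-/- call was lost without GATA2-/- HE replicate 1 (adjusted p = 0.137), HE replicate 2 (0.0755) or HPC replicate 2 (0.124).

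GATA4 lies on chromosome 8 from 11534468 to 11617511 on the plus strand and behaved like GATA3. It was at 12.9 and 14.4 TPM in WT HEs, 9.90 and 16.3 in GATA2-/- HEs, 3.34 and 0.50 in WT HPCs and 1.47 and 2.78 in GATA2-/- HPCs. Again no HPC library reached any HE library. The share of all tested genes that separated in this way between stages is not given here. The separations of GATA1, ZFPM1, GATA3 and GATA4 by stage therefore cannot be judged against it. GATA4 fell by 2.52 on the log2 scale in WT (SE 0.53, adjusted p = 0.0183) and fell by 2.17 in GATA2-/- cells (SE 0.53, adjusted p = 0.0292). The WT call was lost without either WT HE library (adjusted p = 0.0895 and 0.113) or WT HPC replicate 2 (0.0905), and the GATA2-/- call was lost without any of its 4 libraries (0.0711 to 0.175).

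GATA6 lies on chromosome 18 from 19749550 to 19782491 on the plus strand. It was expressed after differentiation at both stages, at 38.9 and 24.3 TPM in WT HEs, 25.8 and 21.0 in GATA2-/- HEs, 40.5 and 17.6 in WT HPCs and 36.4 and 21.5 in GATA2-/- HPCs. The 4 groups overlapped throughout. The log2 difference of HPCs from HEs was -0.20 in WT (95% interval -1.16 to 0.77) and 0.26 in GATA2-/- cells (95% interval -0.71 to 1.22), and the WT sign changed when WT HE replicate 1 or WT HPC replicate 2 was left out.

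ZFPM2, the FOG cofactor best known with GATA4, lies on chromosome 8 from 105602961 to 106816767 on the plus strand. It was at 23.1 and 20.9 TPM in WT HEs, 15.3 and 15.1 in GATA2-/- HEs, 32.2 and 21.4 in WT HPCs and 34.3 and 20.2 in GATA2-/- HPCs. ZFPM2 therefore had a TPM above that of ZFPM1 in all 4 HE libraries and below it in all 4 HPC libraries. Its log2 difference of HPCs from HEs was 0.25 in WT (95% interval -0.68 to 1.17) and 0.76 in GATA2-/- cells (95% interval -0.17 to 1.68), neither past the threshold.

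The order of the GATA genes changed between stages. In WT HEs it was GATA2, then GATA3 and GATA6, whose replicates overlapped, then GATA1 and GATA4, which also overlapped. In GATA2-/- HEs GATA1 came last, below every GATA4 value. In WT HPCs GATA2 and GATA1 overlapped at the top, followed by GATA6 and then by GATA3 and GATA4, which overlapped, and in GATA2-/- HPCs both GATA1 values were above both GATA2 values.

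The comparison of GATA2-/- with WT cells asks what losing GATA2 does at each stage. In HEs, 0 of 7 members passed the adjusted threshold in limma, against 0.0186% of all tested genes. At an unadjusted p under 0.05, 1 of 7 passed (GATA1), against 4.85% of all tested genes. GATA1, at 2.78 and 1.37 TPM against 18.4 and 12.1, had a log2 fold change of -2.41 (SE 0.31, 95% interval -3.11 to -1.71), with an adjusted p = 0.0814 (limma, unadjusted p = 2.99e-05). Across the other settings its adjusted p ran from 0.0689 to 0.5, and it ran from 0.0816 to 0.313 with a library left out. Blood markers were lower as sums in the same libraries. The summed TPM of 12 erythroid markers was 119 to 193 in WT and 34.3 to 49.4 in GATA2-/- HEs, and that of 14 hematopoietic markers was 591 to 667 and 371 to 481. None of these markers passed the adjusted threshold in limma. At an unadjusted p under 0.05 there were 7 of 12 erythroid and 6 of 14 hematopoietic markers. The list medians were -1.50 and -0.71. LAPTM5 was the largest part of the hematopoietic sum, at 262 and 282 TPM in WT and 238 and 233 in GATA2-/- HEs. The part of these markers in the GATA1 difference was not tested. ZFPM1 (-0.77, SE 0.37, unadjusted p = 0.0672) and ZFPM2 (-0.51, SE 0.41, unadjusted p = 0.247) were also lower in both GATA2-/- libraries than in either WT library. With a library left out the ZFPM1 value ran from -0.34 (without WT HE replicate 1) to -1.21 (without WT HE replicate 2). These 3 of 7 members were the ones whose groups did not overlap, and 16.5% of all tested genes were lower without overlap in the same comparison. The median over the members was -0.39, beside -0.01 over all tested genes.

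In HPCs, 0 of 7 members passed the adjusted threshold in limma, against 0.0603% of all tested genes, and 1 of 7 had an unadjusted p under 0.05 (GATA2), against 8.94%. GATA2 was also the only member whose groups did not overlap, lower in both GATA2-/- libraries, as were 13% of all tested genes. Its log2 fold change was -1.32 (SE 0.36, 95% interval -2.13 to -0.51, adjusted p = 0.296). The summed TPM of the 14 hematopoietic markers was also lower without overlap, at 2007 and 2370 in GATA2-/- HPCs against 2758 and 2589 in WT HPCs. ITGA2B was its largest part, at 736 and 1140 TPM against 1147 and 1258, and RUNX1 overlapped, at 361 and 229 against 327 and 198. None of the 14 passed in limma, and their median was -0.27. The summed TPM of the 12 erythroid markers overlapped, at 8539 and 16809 in GATA2-/- against 5593 and 15044 in WT HPCs, with a list median of 0.27. The part of these markers in the GATA2 difference was not tested. GATA1 differed by -0.27 (95% interval -0.97 to 0.43), ZFPM1 by 0.39 (95% interval -0.45 to 1.23) and GATA3 by 0.47 (95% interval -0.44 to 1.37), and those intervals all include 0. The median over the members was 0.06, beside 0.05 over all tested genes. The GATA2-/- HPC libraries were also those with the highest share of mitochondrial transcripts, and with TPM rescaled without mitochondrial genes 0 of 7 members again passed.

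**Figure D3:**
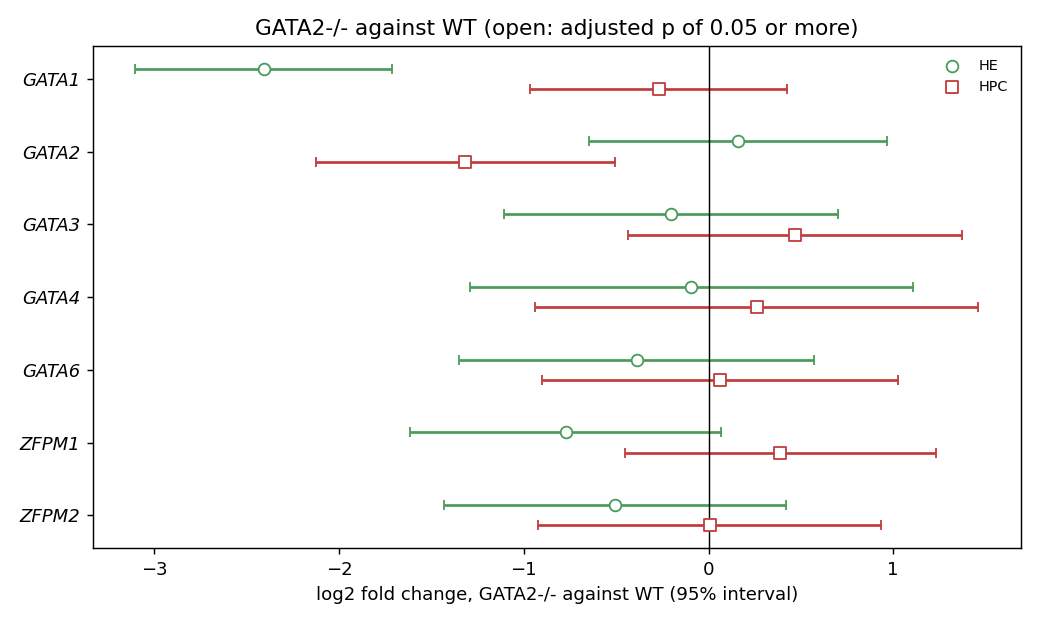
The horizontal axis is the log2 fold change of GATA2-/- against WT on the log2(TPM + 1) scale with its 95% interval from limma, with green circles for HEs and red squares for HPCs, all open because no adjusted p was under 0.05. The intervals that leave out 0 are those of GATA1 in HEs, at -2.41, and GATA2 in HPCs, at -1.32.

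Whether the genotype effect differed between stages was tested directly. No gene of the 21543 passed (0%), and 5.95% of them had an unadjusted p under 0.05 in limma. Of the members, 2 of 7 had an unadjusted p under 0.05. The genotype effect on GATA1 was higher in HPCs than in HEs by 2.14 on the log2 scale (SE 0.43, unadjusted p = 0.000876, adjusted p = 0.483), and that on GATA2 was lower by 1.48 in the same sense (difference -1.48, SE 0.50, unadjusted p = 0.0171, adjusted p = 0.719). For ZFPM1 it was 1.16 (SE 0.52, unadjusted p = 0.0545, adjusted p = 0.845).

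The make-up of the GATA pool was then described per library. The summed TPM of the 5 GATA genes was 208 and 158 in WT HEs, 179.7 and 155 in GATA2-/- HEs, 513 and 445 in WT HPCs and 303 and 295 in GATA2-/- HPCs. All HPC libraries were above all HE libraries, the genotypes overlapped in HEs, and the GATA2-/- HPCs were below the WT HPCs. The log2 sum was higher in HPCs by 1.12 (means 8.56 ± 0.40 and 7.44 ± 0.20, SD, n = 4 each, two-sided exact permutation p = 0.0286, the smallest that 4 against 4 can give, and 0.0429 after Benjamini-Hochberg adjustment over 3 measures). With the replicate number as a block the exact p was 0.0556, which misses the threshold and is the smallest the block allows. The genotypes pooled in HPCs differed by a mean of -0.68 on the log2 scale, so the SD there is not one of replicates alone.

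GATA2 made up 51.4% and 49.5% of this sum in WT HEs, 61.7% and 60.8% in GATA2-/- HEs, 56.5% and 45.9% in WT HPCs and 37.2% and 28.4% in GATA2-/- HPCs. GATA1 made up 8.83% and 7.65% in WT HEs, 1.55% and 0.886% in GATA2-/- HEs, 33.6% and 49.3% in WT HPCs and 47.1% and 61.7% in GATA2-/- HPCs. GATA2 was thus the largest part in every HE library and GATA1 in 3 of the 4 HPC libraries, the exception being WT HPC replicate 1. GATA3 fell from between 14.2% and 18.2% in HEs to at most 3.21% in HPCs.

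**Figure D4:**
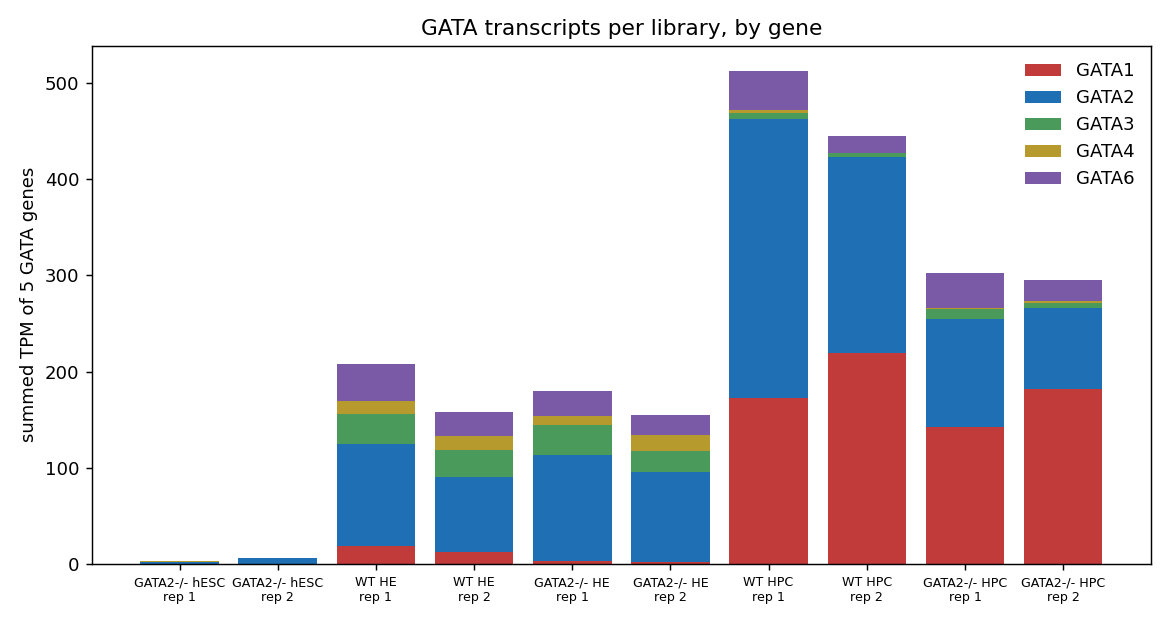
Each bar is 1 library, its height is the summed TPM of GATA1, GATA2, GATA3, GATA4 and GATA6 and the colours are the genes. Bars run from 155 to 208 in HEs, 445 to 513 in WT HPCs and 295 to 303 in GATA2-/- HPCs, and the hESC bars are at 2.69 and 5.54.

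The GATA1 to GATA2 ratio was 0.172 and 0.154 in WT HEs, 0.0251 and 0.0146 in GATA2-/- HEs, 0.594 and 1.08 in WT HPCs and 1.27 and 2.17 in GATA2-/- HPCs. It compares transcript levels and does not measure the exchange of sites known as the GATA switch. From HE to HPC GATA1 rose in both genotypes, while GATA2 differed by 1.40 in WT and -0.07 in GATA2-/- cells on the log2 scale. No HPC value reached down to any HE value. The log2 ratio was higher in HPCs by 4.37 (means 0.20 ± 0.77 and -4.16 ± 1.81, SD, n = 4 each, two-sided exact permutation p = 0.0286, the smallest possible, adjusted p = 0.0429). With the replicate block the exact permutation p was again 0.0556. The genotypes pooled in each stage differed by a mean of -3.09 in HEs on the log2 scale, so the SD there is not one of replicates alone. By genotype, both GATA2-/- values were below both WT values in HEs and above both WT values in HPCs. An exact permutation of 2 against 2 libraries cannot reach the threshold, so these are given as values. In GATA2-/- cells the GATA2 value counts RNA of the disrupted locus, so this ratio is one of transcripts and not of working proteins.

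The ratio of ZFPM1 to the summed GATA genes, that is of FOG1 transcripts to those of its possible partners, was 0.0598 and 0.0401 in WT HEs, 0.0321 and 0.0257 in GATA2-/- HEs, 0.0890 and 0.0595 in WT HPCs and 0.159 and 0.149 in GATA2-/- HPCs. In GATA2-/- hESCs, where the GATA sum was lowest, it was 0.558 and 0.338, above all of these. WT HEs and WT HPCs overlapped, and the GATA2-/- HPCs were above all others of these 8 libraries. Between genotypes the log2 ratio differed by a mean of -0.77 in HEs and 1.08 in HPCs. An SD pooled over genotypes is therefore not one of replicates alone. The log2 difference of HPCs from HEs was 1.49 (means -3.24 ± 0.67 and -4.74 ± 0.52, SD, n = 4 each, two-sided exact permutation p = 0.0571, adjusted p = 0.0571). It missed the threshold, and the exact p was 0.0286 without WT HPC replicate 2.

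**Figure D5:**
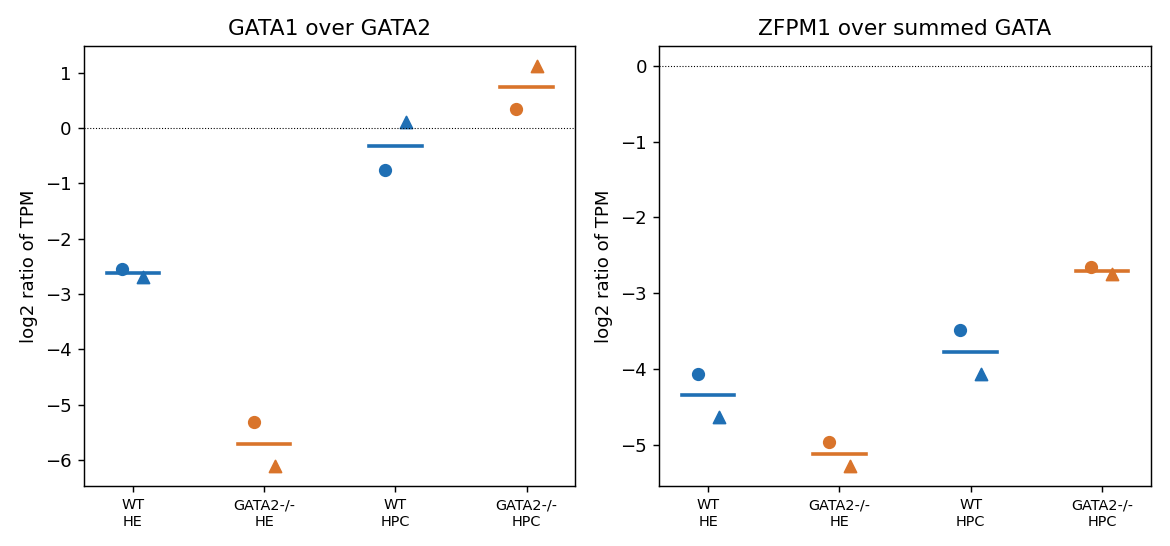
The vertical axes are log2 ratios of TPM, GATA1 over GATA2 on the left and ZFPM1 over the summed GATA genes on the right, with circles, triangles and bars for replicate 1, replicate 2 and their mean (blue WT, orange GATA2-/-). In both panels the GATA2-/- points lie below the WT points in HEs and above them in HPCs. hESCs are not drawn: GATA1 was listed at 0 there, and ZFPM1 over the GATA sum was 0.558 and 0.338.

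The proteins that join GATA1 and GATA2 on DNA were followed with a list of 15 partners. In each genotype 7 of 15 were higher and 1 lower in HPCs than in HEs. Of all tested genes, as given above for the members, 3.32% were higher and 6.59% lower in WT, and 5.5% and 7.24% in GATA2-/- cells, and the counts of the lists that follow stand beside the same shares. Their median change on the log2 scale was 0.82 in WT and 0.59 in GATA2-/- cells, beside -0.01 and 0.03 over all tested genes. KLF1, the erythroid Krüppel-like factor, rose by 2.89 in WT (adjusted p = 0.0137) and 4.88 in GATA2-/- cells (adjusted p = 0.000971). SPI1 (PU.1), the myeloid factor that binds and antagonises GATA1, rose by 2.56 (adjusted p = 0.00564) and 4.25 (adjusted p = 0.000498), and RUNX1, needed for the step from endothelium to blood, by 1.81 (adjusted p = 0.0471) and 3.24 (adjusted p = 0.00299). ERG, an endothelial ETS factor, fell by 2.72 (adjusted p = 0.00122) and fell by 2.36 (adjusted p = 0.00196).

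Other parts of the same complex were already present in HEs. TAL1, the basic helix-loop-helix factor that sits beside GATA factors, was at 156 to 261 TPM in HEs and 162 to 253 in HPCs, and LMO2, the bridging protein, was at 188 to 275 TPM in HEs and 266 to 365 in HPCs. Neither passed the test between stages or genotypes. In the genotype comparisons 0 of the 15 partners passed in limma, with 5 at an unadjusted p under 0.05 in HEs, beside 4.85% of all tested genes, and 1 in HPCs, beside 8.94%. SPI1 was at 35.8 and 22.2 TPM in WT HEs and 6.87 and 2.41 in GATA2-/- HEs, without overlap (log2 fold change -2.50, adjusted p = 0.25), and RUNX1 was at 77.9 and 65.9 TPM against 44.8 and 19.4 (-1.25, adjusted p = 0.944). In HPCs SPI1 was again lower without overlap, at 195 and 151 TPM in WT against 81.0 and 118 in GATA2-/-. RUNX1 overlapped there. Of all tested genes 16.5% in HEs and 13% in HPCs were lower without overlap.

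Of 16 erythroid targets of GATA1, 9 were higher and 0 lower in WT HPCs than in WT HEs (median 1.67 on the log2 scale), beside 3.32% and 6.59% of all tested genes, and 10 were higher and 0 lower in GATA2-/- cells (median 1.70), beside 5.5% and 7.24%. The largest change was that of ALAS2, the first enzyme of heme synthesis in red cells, by 3.90 in WT (adjusted p = 0.000821) and 6.40 in GATA2-/- cells (adjusted p = 0.000158). In HEs the list's median genotype difference was -0.61, beside -0.01 over all tested genes, with 0 of 16 past the threshold in limma and 7 at an unadjusted p under 0.05, beside 4.85% of all tested genes. In HPCs it was 0.10, beside 0.05, with 0 of 16 by either measure.

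Of the 13 tested megakaryocyte and mast cell targets of GATA1 and GATA2, 9 were higher and 1 lower in WT HPCs than in WT HEs (median 1.94), and 7 were higher and 1 lower in GATA2-/- cells (median 2.17). Over all tested genes 3.32% were higher and 6.59% lower in WT (median -0.01), and 5.5% and 7.24% in GATA2-/- cells (median 0.03). HDC, the histamine-forming enzyme of mast cells and basophils, rose by 4.87 (adjusted p = 0.000507) and ITGA2B, the platelet integrin CD41, by 4.21 (adjusted p = 0.000376) in WT, and ITGB3, its partner chain, by 3.54 (adjusted p = 0.000981). Other mast cell genes of the list were low in HPCs, CPA3 at 1.25 to 5.78 TPM and FCER1A at 0.38 to 2.31. TPSAB1, HPGDS and MS4A2 were at most 0.5 TPM there and were not tested. The gene that fell was KIT, the stem cell factor receptor and a GATA2 target (-2.38, adjusted p = 0.00103). Between genotypes KIT went the other way from the list medians and did not pass in limma. It was at 45.2 and 40.1 TPM in GATA2-/- against 21.8 and 23.2 in WT HEs. In HPCs it was at 8.48 and 13.7 TPM in GATA2-/- against 4.02 and 3.04 in WT. PF4, platelet factor 4, was the list gene that passed between genotypes in HEs, at 37.3 and 32.1 TPM in WT and 3.66 and 4.70 in GATA2-/- (-2.79, SE 0.27, adjusted p = 0.0249), and in HPCs it was at 199.6 and 307 TPM against 76.5 and 99.5 (-1.49, adjusted p = 0.153). The list medians between genotypes were -0.79 in HEs and -0.39 in HPCs, beside -0.01 and 0.05 over all tested genes. Of the 13, 1 passed in limma in HEs and 0 in HPCs, beside 0.0186% and 0.0603% of all tested genes. At an unadjusted p under 0.05 in either direction there were 6 in HEs and 5 in HPCs, beside 4.85% and 8.94%.

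Of 12 tested endothelial genes linked to GATA2, 9 were lower and 0 higher in HPCs than in HEs in each genotype, with medians of -1.998 in WT and -2.11 in GATA2-/- cells. Of all tested genes 6.59% were lower in WT and 7.24% in GATA2-/- cells. EDN1, which encodes endothelin-1, fell by 4.59 in WT (adjusted p = 0.00173), VWF, von Willebrand factor, fell by 3.22 (adjusted p = 0.000297) and FLT4, the lymphatic VEGF receptor, fell by 3.19 (adjusted p = 0.000669). None of the 12 passed between genotypes at either stage in limma, and an unadjusted p under 0.05 was reached by 2 in HEs and by 1 in HPCs, beside 4.85% and 8.94% of all tested genes. The list medians were 0.15 in HEs and 0.26 in HPCs, beside -0.01 and 0.05 over all tested genes.

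Lists tied to the other members gave fewer calls. Among 9 tested T cell and innate lymphoid genes linked to GATA3, 2 were higher in WT HPCs than in WT HEs (CD7 by 2.72, adjusted p = 0.00798, and CD2 by 2.18, adjusted p = 0.0206), while GATA3 itself fell. Among 8 tested cardiac genes linked to GATA4 and GATA6, 2 were lower in WT HPCs, NKX2-5 (-3.01, adjusted p = 0.00138) and HAND2 (-2.50, adjusted p = 0.00894). Among 7 tested endoderm genes 2 were lower in WT HPCs, SOX17, which is also an arterial and hemogenic endothelial factor (-4.31, adjusted p = 0.000637), and APOB (-1.29, adjusted p = 0.0482). In GATA2-/- cells the same CD7, CD2, NKX2-5, HAND2 and SOX17 passed in the same direction, and APOB was at -0.96 (adjusted p = 0.111). The medians of the 3 lists were -0.05, -0.91 and -0.39 in WT and 0.10, -0.55 and 0.47 in GATA2-/- cells. No gene of these 3 lists passed between genotypes in limma, where 2 cardiac genes in HEs and 2 lymphoid genes in HPCs had an unadjusted p under 0.05, beside 4.85% and 8.94% of all tested genes.

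The repressor machinery used by FOG1 was expressed throughout. All 15 NuRD and CtBP genes had a TPM of at least 1 in every library, their summed TPM was between 1277 and 1733 across the 10 libraries, and 0 of 15 passed in limma between HPCs and HEs or between genotypes. At an unadjusted p under 0.05 there were 1 in HEs and 0 in HPCs between genotypes, beside 4.85% and 8.94% of all tested genes. Between stages there were 0 in WT and 3 in GATA2-/- cells. The share of all tested genes at that level between stages is not given here, so stage counts cannot be judged against it. The median change of the 15 genes from HE to HPC was 0.02 on the log2 scale in GATA2-/- cells, beside 0.03 over all tested genes. Of 10 other genes with GATA-type zinc fingers, which include 5 of these corepressors, 0 passed in the same comparisons. At an unadjusted p under 0.05 there were 1 in WT and 4 in GATA2-/- cells between stages, with the same limit, and 0 between genotypes. GATA5, the remaining GATA factor of the genome, was at 0.56 and 0 TPM in hESCs, 2.88 to 6.69 in HEs and 5.32 to 19.2 in HPCs.

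Antisense transcripts run beside 4 members, and because the library kit did not mark strand, reads in a shared stretch cannot be told apart. GATA2-AS1 shares 3990 bases with GATA2 and was at 21.0 and 17.9 TPM in WT HEs, 13.4 and 12.3 in GATA2-/- HEs, 43.2 and 32.5 in WT HPCs and 31.2 and 25.9 in GATA2-/- HPCs. It was higher in HPCs than in HEs in every library, by 0.91 in WT (adjusted p = 0.0511) and 1.09 in GATA2-/- cells (adjusted p = 0.0217), the genotype in which GATA2 itself did not pass. GATA6-AS1 shares 290 bases with GATA6 and was at 15.03 to 26.8 TPM in HEs and 23.1 to 60.2 in HPCs. GATA3-AS1, whose 3035 bases lie wholly within GATA3, was at 0.57 to 4.29 TPM in HEs and listed at 0 in all 4 HPC libraries, and ZFPM2-AS1, which shares 258451 bases of gene span with ZFPM2, was at 0.62 to 3.58 TPM in differentiated cells. Of the protein-coding neighbours, HDAC6 beside GATA1 was at 71.2 to 126 TPM in HEs and 122 to 167 in HPCs, and RPN1 beside GATA2 was at 141 to 256 and 92.4 to 176, neither past the threshold in any comparison of stage or genotype among differentiated cells. DNAJB8 was listed at 0 throughout and GLOD5 was below 1 TPM.

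For each member the other tested genes (up to 3) with the most similar profile over the 10 libraries were found by the root-mean-square difference of centred log2(TPM + 1), a description over libraries that fall into 3 stages. For GATA1 they included ITGB3, a platelet integrin (0.28), and ALAS2 (0.42), both on lists of GATA1 targets. For ZFPM1 they were TMEM164 (0.26), CCND3, cyclin D3 (0.28), and SLC28A3 (0.29), and for GATA2 they were VAV1, a blood signalling protein (0.43), MYO15B (0.46) and TMEM173 (0.46). GATA3 was closest to SLITRK6 (0.20), TLR4 (0.22) and GPR124, an endothelial receptor (0.31), and GATA4 to TENC1 (0.27), DCLK2 (0.35) and JAG2, a Notch ligand (0.36). GATA6 was closest to MYCT1 (0.37), PEAR1 (0.37) and C15orf26 (0.38), and ZFPM2 to ELMSAN1 (0.25), YAF2 (0.30) and DPY19L2P1 (0.31). ITGB3 was listed under 2 Ensembl genes, and the one with the higher mean was used.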

How the data were processed

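Total RNA from sorted cells was made into libraries with a TruSeq kit and sequenced as short single-end reads, trimmed with Trimmomatic and mapped with Bowtie; the submitters' processing notes also name RSEM and the builds hg19 and mm10. The authors deposited 1 TPM value per gene and library, with library sums of 998299 to 999106, so read depth is unknown and the precision was judged only from replicates. The 10 libraries entered 1 limma fit (version 3.58.1 under R 4.3.3, eBayes with trend) of log2(TPM + 1), kept to the 21543 genes that reached 1 TPM in 2 or more libraries, and p-values were adjusted by Benjamini-Hochberg at 0.05. The pseudocount of 1 understates changes of low genes. The Cuffdiff test of the study needs alignments and was not repeated. Data were simulated with normal noise and 200 changed genes for the HE genotype comparison (21543 genes). The changed genes were drawn only from those with a mean log2(TPM + 1) above 4 in WT HEs. The procedure called 81% of those changed by 2 and 99% of those changed by 4 on the log2 scale, with 4 other genes. GATA1, GATA4 and ZFPM1 lay below that mean in WT HEs, so these rates do not cover them. Ratios of TPM were compared over 4 HPC and 4 HE libraries by a two-sided exact permutation test (Python 3.11.15). Named genes were the 7 members, antisense and neighbouring genes with values, up to 3 genes of each list with the largest change past the threshold, TAL1, LMO2, KLF1, SPI1 and RUNX1, and the 3 tested genes most like each member. KIT, GATA5 and the markers given singly were named after their values were seen. Results of 1 item are not reported here. The members and the gene lists were chosen with earlier results of these data known. The 2 WT hESC samples were not analysed here. Alternatives were another pseudocount, filters, scalings, a replicate block and leaving out each replicate.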

Additional observations from a re-analysis of the deposited data

Results flagged for a closer look

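Both ratio measures went opposite ways with genotype in HEs and HPCs. The log2 ratio of GATA1 to GATA2 was lower in both GATA2-/- HE libraries than in either WT HE library (mean difference -3.09) and higher in both GATA2-/- HPC libraries than in either WT HPC library (1.06), so that the genotype effect differed between stages by 4.15 on the log2 scale. The log2 ratio of ZFPM1 to the summed GATA genes differed by -0.77 in HEs and 1.08 in HPCs, a difference of 1.85. For each, an exact permutation test of the difference over 36 arrangements of the genotype labels within stages gave p = 0.0556, so neither passed. That is the smallest p this design allows. The ratios were flagged because their genotypes separated in opposite directions at the 2 stages, and that ordering by itself fixes this p. It therefore adds nothing to the values. The 2 ratios both have the GATA2 value in the denominator, and in GATA2-/- cells that value counts RNA of the disrupted locus.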

How the results depend on the processing

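TPM keeps no depth, and each group has 2 libraries, so a call rests on a variance shared over 5 groups. Of 665 recomputed member values (49 values), 642 kept the main direction, and none of the reversals touched a value past the threshold. The number of members called from HE to HPC was 5 in WT and 4 in GATA2-/- cells, and fell to 3 and 2 with a pseudocount of 0.1 and to 0 and 0 with only the 4 libraries compared (limma, where 5 and 4 members had an unadjusted p under 0.05), and ranged from 1 to 3 and from 2 to 3 with a library left out, when the lone library is assumed to vary like the other groups. It stayed at 6 against hESCs and at 0 between genotypes with a library left out. Reversed values of members were GATA6 and ZFPM2 between genotypes in HPCs, -0.0077 and -0.066 with quantile normalization and -0.0086 and -0.067 with median-of-ratios scaling, and GATA2 from GATA2-/- HE to HPC, 0.091 with quantile normalization and 0.063 with TPM rescaled without mitochondrial genes, which moved the median of all genes there by 0.11. With a library left out, the genotype difference in HEs ran from -0.064 to 0.38 for GATA2, -0.42 to 0.24 for GATA4 and -0.42 to 0.023 for GATA3, and in HPCs from -0.52 to 0.64 for GATA6, -0.36 to 0.37 for ZFPM2 and -0.51 to 1.03 for GATA4. From HE to HPC it ran from -0.78 to 0.38 for GATA6 and -0.038 to 0.53 for ZFPM2 in WT, and from -0.28 to 0.14 for GATA2 and -0.11 to 0.62 for GATA6 in GATA2-/- cells. The difference between stages ran from -0.41 to 1.12 for GATA4 and -0.13 to 1.03 for GATA6. Over all genes, the calls between genotypes were 4 in HEs and 13 in HPCs, against 13 (no filter), 12 (no trend), 2 (TPM of at least 5, and the replicate block) and 0 (only the libraries compared, or any library left out) in HEs, and 6 (pseudocount of 0.1), 20 (no trend), 3 (replicate block), 0 (only the libraries compared) and 0 to 9 (a library left out) in HPCs. With only the libraries compared, the 2134 and 2745 calls from HE to HPC became 0. The share of all genes at an unadjusted p under 0.05 in that fit is not given here. Of the calls in HEs 25% were higher in GATA2-/- cells, and 40% with quantile normalization. The cause of these changes was not tested.

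Samples with the same replicate number were not taken as pairs, since the correlation of their deviations ran from -0.0141 to 0.1227 over 10 pairs of groups and exceeded 0.1 in 1. The file headers of replicate 2 of the 4 HE and HPC groups carry a tag that replicate 1 lacks, whose meaning is not given in the sources used here. A batch behind that tag would coincide with the replicate number, and the block is the fit that allows for it. With the replicate block, 4 members were called from HE to HPC in each genotype and 0 between genotypes, and ZFPM1 passed between GATA2-/- HE and hESC (adjusted p = 0.0291). The log2 differences of GATA1 to GATA2 (4.37) and of the GATA sum (1.12) then had an exact permutation p = 0.0556, the smallest the block allows. With a library left out the first ran from 3.72 to 4.91, the second from 0.98 to 1.24 and that of ZFPM1 to the GATA sum from 1.30 to 1.77, with an exact permutation p = 0.0286 at 1.77 (without WT HPC replicate 2).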
